A study of Homo sapiens with 10 samples.

Results

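SMAD7 and THBS1 are genes of the TGF-beta pathway, and both stood higher in ORC mutant lines of HCT116 than in the wild type. They were chosen by name: every probe set that the platform annotation pairs with SMAD7 or THBS1, which gave 1 probe set for each gene (16855127 for SMAD7 and 16799315 for THBS1), or 2 of 16098 named probe sets and 2 of 14884 named genes. The names were picked because earlier results of these data had SMAD7 higher in ORC2BP8 and THBS1 higher in ORC1B14, both against WT. Their differences from WT are therefore described here without a test.

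HCT116 is an established human colorectal carcinoma line. The arrays cover untreated wild-type cells (WT), the ORC1 mutant lines ORC1B14 and ORC1BP32, and the ORC2 mutant lines ORC2B2 and ORC2BP8, with 2 Affymetrix arrays for each of the 5 lines. ORC1 and ORC2 encode subunits of the origin recognition complex, which marks the places where DNA replication starts. The arrays of a line are titled biological replicates. The labels give neither the kind of mutation nor whether replicates are separate cultures, so the spread between replicates, and every p-value, may be technical only. Each mutant line carries its own name and may descend from 1 cell, which the labels do not say. A difference between a single line and WT can therefore not be told apart from a difference between lines of any kind. The mean of the mutant lines is also set against a single WT line, so a trait of that line alone would enter it. For this mean, and for ORC1 against ORC2 lines, errors and p-values rest on the spread between arrays of a line. They leave out the spread between lines. Values are log2 expression values as deposited, where a difference of 1 is a doubling. Array medians lay between 3.87 and 3.96, and correlations between arrays of a line between 0.979 and 0.984. All 9 named markers of colorectal epithelium of 12 listed, among them EPCAM, KRT18 and KRT19, lay at or above the array median on all 10 arrays. The labels could not be checked against ORC1 and ORC2, which are not named in the probe annotation. Of other cell types, the fibroblast markers DCN and LUM, the endothelial PECAM1 and KDR, and CD14, LYZ and PPBP of blood cells and platelets lay below the median on all 10 arrays, whereas THY1, ESAM, CLDN5, CD68 and PF4 lay above it on all 10. The mean level of the 3 named fibroblast markers ran from 3.11 to 3.17 over the lines, that of 6 endothelial markers from 4.14 to 4.45, and that of 6 markers of blood cells and platelets from 4.31 to 4.57.

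TGF-beta ligands bind a pair of receptor kinases that phosphorylate SMAD2 and SMAD3, which join SMAD4 and enter the nucleus. SMAD7 is a feedback inhibitor: its transcription is switched on by these SMADs, and its protein blocks the receptor and brings ubiquitin ligases of the SMURF type to it. THBS1 encodes thrombospondin 1, a secreted matrix glycoprotein that can release TGF-beta from its latent form, that binds the cell surface proteins CD47 and CD36, and that is itself a target of TGF-beta and of the YAP and TEAD transcription factors. HCT116 is known to carry inactivated TGFBR2, the type II receptor, and therefore responds poorly to added TGF-beta. TGFBR2, TGFBR1 and TGFB1 were not named in the probe annotation and are not analysed here.

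The 250 bases before the start of each gene are shown because both genes lay above WT in all 4 mutant lines. They are RefSeq sequences of GRCh38.p14, written 5′ to 3′ on the strand of the gene. The SMAD7 stretch lies at chr18:48950966-48951215 on the minus strand, before the most upstream of 3 starts listed for this gene. The THBS1 stretch lies at chr15:39580829-39581078 on the plus strand. Capitals mark matches, on either strand, to CAGAC, which holds the AGAC core that SMAD3 and SMAD4 contact, and to GGAATG, a core that TEAD factors recognise.
SMAD7: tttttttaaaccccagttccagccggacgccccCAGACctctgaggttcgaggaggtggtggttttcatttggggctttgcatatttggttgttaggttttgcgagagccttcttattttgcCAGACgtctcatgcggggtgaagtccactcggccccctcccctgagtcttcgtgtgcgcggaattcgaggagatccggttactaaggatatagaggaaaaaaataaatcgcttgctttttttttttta
THBS1: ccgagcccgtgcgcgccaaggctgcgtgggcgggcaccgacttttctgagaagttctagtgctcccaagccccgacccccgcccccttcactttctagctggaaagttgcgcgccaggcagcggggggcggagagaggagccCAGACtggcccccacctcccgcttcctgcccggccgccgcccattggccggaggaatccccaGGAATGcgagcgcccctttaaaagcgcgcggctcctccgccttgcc
The SMAD7 stretch held CAGAC at 217 and 128 bases before the start, and THBS1 held it at 108 bases before. Of 35116 such stretches in the table, 38.0% hold this short word on at least 1 strand. GGAATG stood 46 bases before the THBS1 start and was found in 11.9% of stretches, but in none of the 3 of SMAD7. GTCTAGAC, the full SMAD palindrome, was in none of the stretches of SMAD7 or THBS1. It was in that of SMAD6, at 12 bases before the start, and in 0.182% of all stretches. Sites outside the 250 bases before the listed starts were not looked for, so a miss does not say that a gene lacks the element. The AP-1 word TGANTCA was in none of the stretches of SMAD7 and THBS1 and in 6.57% of all. A match of letters is no measurement of binding.

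SMAD7 stood highest in ORC2BP8 by a wide margin. Its log2 values were 4.64 and 4.35 in WT, 5.11 and 5.04 in ORC1B14, 5.65 and 4.82 in ORC1BP32, 4.98 and 5.53 in ORC2B2, and 6.93 and 6.87 in ORC2BP8, replicate 1 first. Both ORC2BP8 arrays lay above every other array, the other mutant arrays overlapped each other, and all 8 mutant arrays lay above both WT arrays. Such a complete separation from WT upward was seen in 7.96% of the 10797 genes tested, and since SMAD7 was chosen on this contrast nothing is read from it. The line means were 6.90 ± 0.0453 in ORC2BP8, 5.26 ± 0.39 in ORC2B2, 5.24 ± 0.59 in ORC1BP32, 5.08 ± 0.0522 in ORC1B14 and 4.50 ± 0.20 in WT (SD, n = 2 each). The WT level was 0.68 and 0.48 above the medians of its arrays, so the gene was dim there.

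The fitted difference of SMAD7 from WT was 2.40 in ORC2BP8 (SE 0.28), a 5.29-fold higher level. It was 0.76 in ORC2B2, 0.74 in ORC1BP32 and 0.58 in ORC1B14, with the same SE. The ORC2BP8 difference was alike in both replicates, 2.29 in the first and 2.51 in the second. The others were less even, at 0.34 and 1.18 in ORC2B2 and at 1.02 and 0.47 in ORC1BP32. Without its replicate 1 the ORC1BP32 difference was 0.32, and without its replicate 2 it was 1.16. The 3 lines other than ORC2BP8 and WT were compared with each other in 3 pairs, which the choice of the gene did not rest on. None of these pairs passed the test, and of all genes 0.0185%, 0.0278% and 0.0278% did in the order given here. ORC1B14 minus ORC1BP32 was -0.16 (95% interval -0.78 to 0.46, limma adjusted p = 0.999), ORC1B14 minus ORC2B2 was -0.18 (-0.80 to 0.44, limma adjusted p = 0.947) and ORC1BP32 minus ORC2B2 was -0.02 (-0.64 to 0.60, limma adjusted p = 0.999). Their order is thus not settled by these arrays.

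THBS1 had another order of lines, with ORC1B14 first. Its log2 values were 6.75 and 7.40 in WT, 10.13 and 9.27 in ORC1B14, 8.44 and 7.90 in ORC1BP32, 9.56 and 8.52 in ORC2B2, and 8.56 and 7.91 in ORC2BP8. All 8 mutant arrays again lay above both WT arrays, while ORC2B2 overlapped with ORC1B14 and with ORC2BP8, and ORC2BP8 with ORC1BP32. The line means were 9.70 ± 0.61 in ORC1B14, 9.04 ± 0.74 in ORC2B2, 8.24 ± 0.46 in ORC2BP8, 8.17 ± 0.39 in ORC1BP32 and 7.07 ± 0.46 in WT (SD, n = 2 each).

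The fitted difference of THBS1 from WT was 2.63 in ORC1B14 (SE 0.40), a 6.17-fold higher level. It was 1.97 in ORC2B2, 1.17 in ORC2BP8 and 1.10 in ORC1BP32, each with the same SE. The replicates differed in a pattern. In each of the 4 mutant lines replicate 2 was the lower array, by 0.55 to 1.04, whereas in WT it was the higher one, by 0.65. Within replicate 1 the differences from WT were therefore 3.38, 2.82, 1.82 and 1.70 for ORC1B14, ORC2B2, ORC2BP8 and ORC1BP32, and within replicate 2 they were 1.87, 1.12, 0.51 and 0.50. The order of the lines was the same in both replicates. In the 3 pairs of lines that leave out WT and ORC1B14, none passed the test, and of all genes 0.222%, 0.0278% and 0.111% did in the order given here. ORC2B2 minus ORC2BP8 was 0.80 (95% interval -0.0844 to 1.69, limma adjusted p = 0.937), ORC1BP32 minus ORC2B2 was -0.87 (-1.76 to 0.0163, limma adjusted p = 0.999) and ORC1BP32 minus ORC2BP8 was -0.07 (-0.96 to 0.82, limma adjusted p = 0.999).

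**Figure D1:**
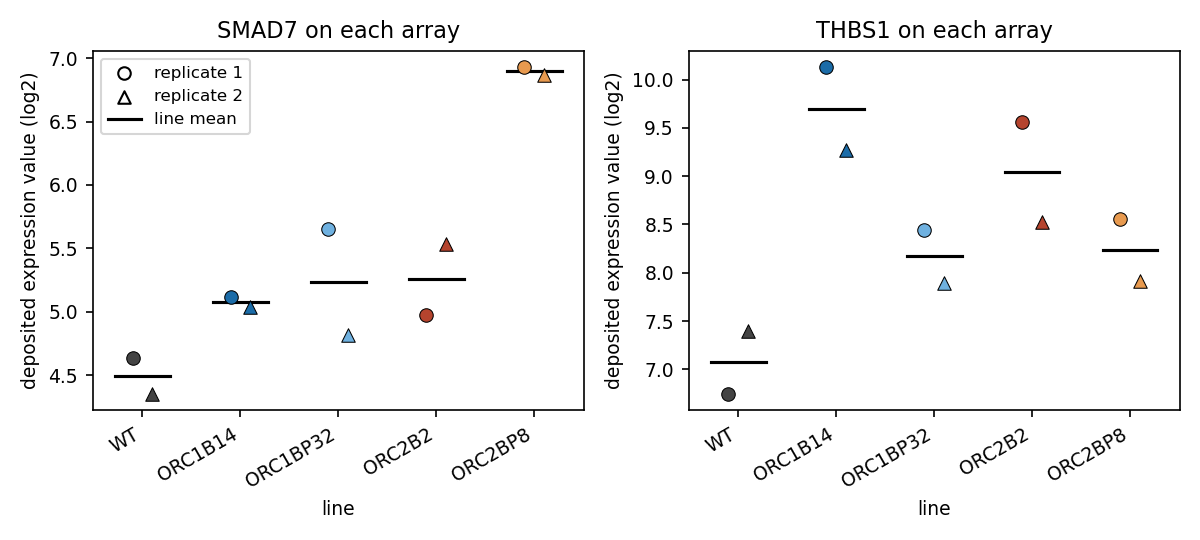
Deposited log2 values of SMAD7 (left) and THBS1 (right) on each of the 10 arrays, by line, with circles for replicate 1, triangles for replicate 2 and a bar for the line mean; the axes do not start at 0. The 2 ORC2BP8 arrays stand at 6.93 and 6.87 for SMAD7, above all others, and THBS1 is highest in ORC1B14 and lowest in WT.

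The highest line was an ORC2 mutant for SMAD7 and an ORC1 mutant for THBS1. The arrays of ORC1 and ORC2 lines overlapped for both genes. The mean of the ORC1 lines minus that of the ORC2 lines was -0.92 for SMAD7 (SE 0.20) and 0.29 for THBS1 (SE 0.28). For SMAD7 this difference holds ORC2BP8, without which the ORC2 line left, ORC2B2, stood within 0.18 of both ORC1 lines.

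The rest of the pathway was read from 10 gene lists, with 166 genes besides SMAD7 and THBS1, of which 99 were named and 82 were bright enough to be tested. A single gene passed the test, in 1 comparison. In ORC2BP8, 1 of 82 was called higher by limma and 0 lower at an adjusted p under 0.05, against 0.250% of all genes called higher and 0.935% called in either direction. There 16 of 82 had an unadjusted limma p under 0.05 (19.5%, against 14.6% of all genes). In ORC1B14, 0 of 82 were called (0.583% of all genes) and 19 had an unadjusted limma p under 0.05 (23.2%, against 17.0% of all genes). In ORC2B2, 0 of 82 were called (0.333% of all genes) and 9 had an unadjusted limma p under 0.05 (against 11.7% of all genes). In ORC1BP32, 0 of 82 were called (0.0185% of all genes) and 7 had an unadjusted limma p under 0.05 (8.54% against 10.1%). In the mean of the 4 lines, 0 were called (1.02% of all genes) and 12 had an unadjusted limma p under 0.05 (14.6% against 17.3%). These comparisons share the WT arrays. Between ORC1 and ORC2 lines, 0 of 82 were called (0.0463% of all genes), and 11 had an unadjusted limma p under 0.05 (13.4% against 6.96%). All 8 mutant arrays lay above both WT arrays for 8 of the 82 genes (9.76%, against 7.96% of all genes) and below for 2 (6.93% of all genes).

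The gene called was BAMBI, a pseudoreceptor that lacks the kinase domain and dampens TGF-beta and BMP signals, and like SMAD7 an inhibitor. Its log2 values were 5.90 and 6.62 in WT, 6.96 and 7.22 in ORC1B14, 6.66 and 6.76 in ORC1BP32, 6.12 and 6.54 in ORC2B2, and 7.68 and 8.25 in ORC2BP8. The ORC2BP8 arrays lay above all others, and the ORC2B2 arrays lay within the range of WT. BAMBI rose by 1.70 in ORC2BP8 (SE 0.28, limma adjusted p = 0.0206), and the other lines stood at 0.83, 0.45 and 0.07 in ORC1B14, ORC1BP32 and ORC2B2. It lost the call without WT replicate 1 (1.34, limma adjusted p = 0.140), without ORC2BP8 replicate 2 (1.42, limma adjusted p = 0.190) and when unnamed probe sets were tested too (limma adjusted p = 0.0978). The count of 1 became 2 without either ORC1B14 array, where FN1 was called as well.

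SMAD6, the inhibitory SMAD that acts mainly on the BMP branch, is the closest relative of SMAD7 in function. Its values were 4.97 and 5.05 in WT, 5.12 and 5.10 in ORC1BP32, 6.37 and 6.39 in ORC1B14, 6.57 and 6.12 in ORC2B2, and 6.77 and 5.76 in ORC2BP8. All lines but ORC1BP32 stood well apart from WT, at 1.37 in ORC1B14, 1.33 in ORC2B2 and 1.25 in ORC2BP8 (SE 0.29), and ORC1BP32 stood at 0.10. None of these passed the test over all genes (limma adjusted p = 0.0701, 0.0906 and 0.0843). In the mean of the 4 lines SMAD6 stood at 1.01 (limma adjusted p = 0.0624). After quantile normalization ORC1B14 (limma adjusted p = 0.0494) and this mean (limma adjusted p = 0.0450) passed the test. Without ORC2BP8 replicate 1 or replicate 2, the differences in ORC1B14 (limma adjusted p = 0.0317 and 0.0322) and ORC2B2 (limma adjusted p = 0.0409 and 0.0394) passed it, as did that mean (limma adjusted p = 0.0309 and 0.0279). Without replicate 2 the ORC2BP8 difference also passed it, at 1.75 (limma adjusted p = 0.0402). Of the 13 tested inhibitors inside the cell, 7 stood above 0 and 6 below in the mean of the 4 lines, with a median of 0.05, against 0.04 over all genes. Of all 10797 genes tested, 5980 stood above 0 in that mean. The ubiquitin ligase gene SMURF1, whose product SMAD7 brings to the receptor, lay between -0.11 and 0.22 from WT. SMURF2 stood at -0.75 in ORC1B14, -0.43 in ORC2BP8, -0.15 in ORC2B2 and 0.22 in ORC1BP32, and SKIL, a repressor of SMAD-bound genes, lay between -0.39 and 0.27. None of these passed the test.

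Upstream, the signalling SMADs showed no call. SMAD2 lay between -0.18 and -0.02 from WT over the 4 lines, SMAD3 between -0.27 and 0.05, and SMAD4 between -0.37 and -0.14. The list of signalling SMADs and partners had 3 of 10 tested genes above 0 in the mean of the 4 lines and a median of -0.11. Among ligands, BMP4 was on all 8 mutant arrays above WT, as were 7.96% of all genes. It stood at 1.14 in ORC2BP8, 0.92 in ORC1B14, 0.53 in ORC2B2 and 0.35 in ORC1BP32 (SE 0.27), and passed the test in none of these lines. The 8 tested ligands had a median of 0.09 in the mean of the 4 lines, with 6 above 0. LTBP1, which tethers latent TGF-beta to the matrix, lay between -0.29 and 0.51, and FURIN, the protease that cuts the TGF-beta precursor, between -0.51 and 0.01. Of 6 tested genes of ligand storage and activation, 4 stood above 0 (median 0.14), and of 8 tested antagonists outside the cell, 6 did (median 0.08). Among these 6 antagonists is BMPER, whose WT values of 3.85 and 3.52 were under the array medians. BMPER passed the filter only through mutant arrays. FST, the antagonist follistatin, was too dim to be tested. Only 3 of 15 listed receptors and co-receptors were named. In the mean of the 4 lines, 0 of these 3 were called by limma (1.02% of all genes) and 0 had an unadjusted limma p under 0.05 (17.3% of all genes).

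Downstream, 13 target genes of TGF-beta were tested and 8 stood above 0 in the mean of the 4 lines, with a median of 0.13 and 0 calls by limma (1.02% of all genes). An unadjusted limma p under 0.05 was found for 1 of the 13 (7.69%, against 17.3% of all genes). That gene was HMGA2, which stood below WT, at -0.92 in the mean and between -1.41 and -0.61 in the lines. FN1, the matrix protein fibronectin, stood at 1.44 in ORC2BP8 (SE 0.32, limma adjusted p = 0.0756) and at 0.12, 0.14 and 0.23 in ORC1B14, ORC1BP32 and ORC2B2. Its ORC2BP8 values of 8.27 and 8.12 lay above all others, which ran from 6.33 to 7.42. CCN2, a matricellular protein gene driven by both TGF-beta and YAP, stood at 0.68 in ORC1B14, 0.50 in ORC2B2, 0.45 in ORC2BP8 and 0.09 in ORC1BP32. All 3 tested BMP targets stood above 0 in the mean of the 4 lines (median 0.31), as did 5980 of all 10797 genes tested. Of the 3, 0 were called by limma (1.02% of all genes) and 0 had an unadjusted limma p under 0.05 (17.3% of all genes). The ID genes, the best known BMP targets, are not analysed here.

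Targets of YAP and TEAD were listed because THBS1 is one. Of 10 tested, 9 stood above 0 in the mean of the 4 lines, with a median of 0.28 against 0.04 over all genes, and 0 were called by limma (1.02% of all genes). An unadjusted limma p under 0.05 was found for 2 of the 10, against 17.3% of all genes. ANKRD1, a nuclear ankyrin repeat protein gene of this list, stood at 1.54 in ORC2B2, 1.31 in ORC1B14, 0.86 in ORC2BP8 and 0.32 in ORC1BP32 (SE 0.33). Its WT values of 3.50 and 3.59 were under the array medians, which leaves the size of its differences uncertain, and it passed the filter only through mutant arrays. Its differences are therefore a description with no test. ANKRD1 is still counted among the 9 and the 2 given here, and among the 8 of 82 pathway genes with all mutant arrays above WT. It is also counted among the pathway genes with an unadjusted limma p under 0.05 in ORC1B14, ORC2B2, ORC2BP8 and the mean of the 4 lines.

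Of 9 tested thrombospondins and binding partners besides THBS1, 5 stood above 0 in the mean of the 4 lines (median 0.11), 0 were called by limma (1.02% of all genes) and 4 had an unadjusted limma p under 0.05 (44.4%, against 17.3% of all genes). The 4 were THBS3 and CD47, which stood below 0, and SDC1 (0.37) and CALR (0.40), which stood above. For SDC1 and CALR all 8 mutant arrays lay above WT, as for 7.96% of all genes. THBS2 lay between 0.03 and 0.30 from WT, and THBS3 between -0.80 and -0.52, with all 8 mutant arrays below WT, as for 6.93% of all genes. CD47, the cell surface receptor of thrombospondin 1, had values of 8.30 and 8.53 in WT and between 7.06 and 7.81 on the mutant arrays. Its differences were -1.17 in ORC1B14, -0.97 in ORC2BP8, -0.89 in ORC2B2 and -0.86 in ORC1BP32 (SE 0.25, lowest limma adjusted p = 0.0704). In the mean of the 4 lines it stood at -0.97 (SE 0.20, limma adjusted p = 0.0505), which missed the threshold narrowly. That difference passed the test after quantile normalization (limma adjusted p = 0.0365) and with probe sets averaged per gene (limma adjusted p = 0.0499). It also passed with only genes above the median on all 10 arrays (limma adjusted p = 0.0422) and with the replicate number as a block (limma adjusted p = 0.0194). The CD47 difference did not pass after centring of arrays, with no filter, with no intensity trend or with unnamed probe sets tested too. Leaving out 1 array at a time, it passed only without ORC1B14 replicate 2 (-1.02) or without ORC2BP8 replicate 1 (-1.05).

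**Figure D2:**
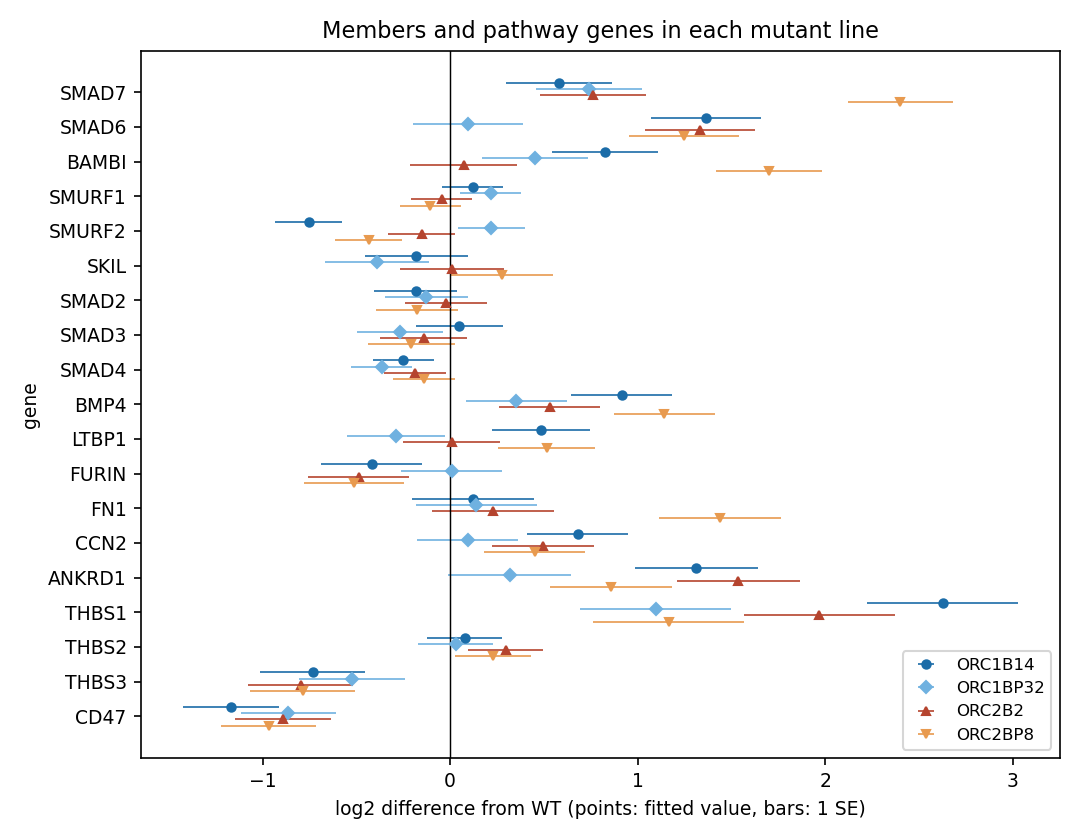
Fitted log2 difference from WT of SMAD7, THBS1 and 17 named genes of the pathway lists in each mutant line, with bars of 1 SE. SMAD7, BAMBI and FN1 have their highest point in ORC2BP8, THBS1 in ORC1B14, and CD47 lies below 0 in all 4 lines.

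The genes most like each member were found by the root mean square difference between gene profiles over the 10 arrays, each value minus the gene's own mean. The arrays share lines and replicate numbers, so this is a description. SMAD7 itself varied by 0.83 on this measure. Its closest genes were PKN3, a protein kinase (0.47), P3H2, a collagen prolyl hydroxylase (0.49), TRIML2 (0.50), BAMBI (0.51) and FN1 (0.51). In ORC2BP8 they stood at 1.31, 1.27, 1.21, 1.70 and 1.44 from WT. Each was smaller than the SMAD7 difference of 2.40. The choice of these genes leaned on 1 line: without ORC2BP8 replicate 1, or without replicate 2, only 1 of the 5 was again among the closest, and likewise 1 when unnamed probe sets could compete.

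THBS1 varied by 0.97. Its closest genes were the zinc-finger factor gene GLIS3 (0.39), IGFBP6, a binding protein of insulin-like growth factors (0.44), KLK6, a secreted serine protease (0.47), TMEM171 (0.51) and SECTM1 (0.53). In ORC1B14 these 5 genes stood at 2.56, 1.85, 1.95, 1.35 and 1.44 from WT, and in ORC2B2 at 1.45, 1.43, 1.48, 0.95 and 1.35. Each of the 5 was higher in ORC2B2 than in ORC1BP32, as THBS1 was, but their choice by likeness to THBS1 favours this, so nothing is read from it. Without any 1 array, 3 to 5 of them were again among the closest. SMAD6 ranked 12 in likeness to THBS1 and 3431 in likeness to SMAD7, whereas BAMBI ranked 4 for SMAD7 and 8591 for THBS1. SMAD7 itself ranked 10152 for THBS1. The measure is not scaled for how much a gene varies. A gene that varies in another pattern can thus rank below a nearly flat one, so a late rank does not show an opposite pattern.

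**Figure D3:**
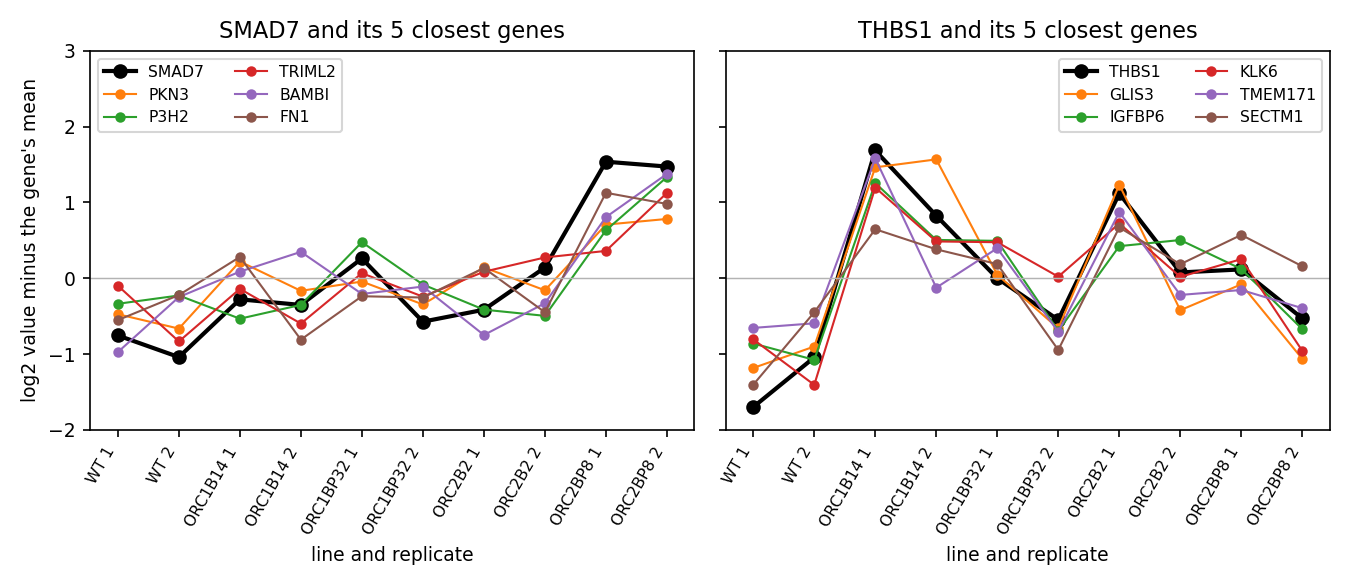
Log2 values minus each gene's mean over the 10 arrays, by line and replicate, for SMAD7 (left, black) and THBS1 (right, black) with the 5 genes of smallest root mean square difference to each. By line mean, SMAD7 and the genes with it are highest in ORC2BP8, and THBS1 and the genes with it are lowest in WT and highest in ORC1B14.

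The median neighbour on the chromosome stayed near WT for both genes. In the order of the RefSeq gene table, the 20 tested genes around SMAD7 on chromosome 18 had a median difference from WT of 0.09 in ORC2BP8, with 11 of 20 above 0, and of 0.01, -0.09 and 0.01 in ORC1B14, ORC1BP32 and ORC2B2. A pair of neighbours is named here after their values were seen. MIR4527, a microRNA gene 3 tested genes away, had values of 5.78 and 5.02 in ORC2BP8 and between 2.23 and 2.74 on the 8 other arrays. It stood at 2.99 in ORC2BP8 (SE 0.25) and lay between -0.16 and 0.08 in the other mutant lines. On those 8 arrays it was under the array median, so it passed the filter on dim probe sets only through the ORC2BP8 arrays. Its difference is therefore a description with no test, and its size is uncertain. The tested genes between MIR4527 and SMAD7 were SMAD2 and CTIF, which stood at -0.18 and -0.62 in ORC2BP8, and genes not tested may lie there too. CFAP53 was bright enough on all 10 arrays, and it fell by 1.04 (SE 0.20, limma adjusted p = 0.0377). It lay at -0.82, -0.83 and -0.70 in ORC1B14, ORC1BP32 and ORC2B2. CFAP53 lost its call without 7 of the 10 arrays, one at a time: either WT array, either ORC1BP32 array, either ORC2B2 array or ORC2BP8 replicate 2 (limma adjusted p up to 0.289), and also with no filter (0.0513) or unnamed probe sets included (0.124). The 20 neighbours of THBS1 on chromosome 15 had medians between 0.05 and 0.09 in the 4 lines and 0 calls by limma in each. Of all genes, 0.583%, 0.0185%, 0.333% and 0.935% were called in ORC1B14, ORC1BP32, ORC2B2 and ORC2BP8.

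**Figure D4:**
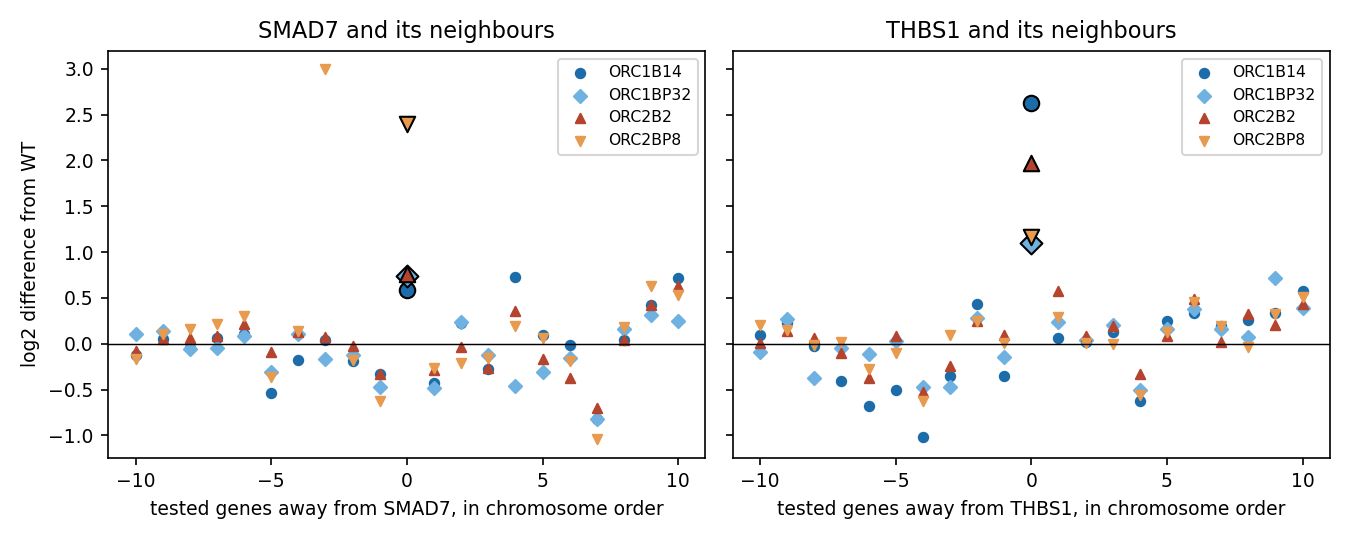
Fitted log2 difference from WT of SMAD7 (left) and THBS1 (right, both outlined, at 0) and of the 10 tested genes on each side in chromosome order. In ORC2BP8 a single neighbour of SMAD7, MIR4527 at 2.99, stands higher than SMAD7 at 2.40; the neighbours of THBS1 lie between -1.01 and 0.71.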

How the data were processed

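Gene expression was measured on 10 Affymetrix arrays of 5 HCT116 lines. The authors deposited 1 log2 value per probe set and array, in a table of 53617 probe sets, made with Affymetrix Expression Console per the submitters' processing notes. The log base was read from the values (1.45 to 13.71). For normalization, probe annotation and genome build, details were not given in the sources used here. Values were used without further scaling. The platform annotation names 16098 probe sets, all matched to RefSeq (GRCh38.p14) by gene ID. Those at or above the array median on at least 2 arrays were kept, and for 421 genes with several the brightest was taken, leaving 10797 genes. Lines were compared in R 4.3.3 with limma 3.58.1 (lmFit on line means, eBayes with an intensity trend, 5 residual and 5.83 prior degrees of freedom, two-sided), and p-values were adjusted by Benjamini-Hochberg over all genes tested, with a threshold of 0.05. The fit was also run on simulated data with independent noise on each array. Such data lack the deviations that same-numbered arrays share, so that run says nothing of their effect. Members, gene lists and tests, and how genes to name were picked, were set with earlier results of these data known. Named were 32 listed partners (16 of them tested), every pathway gene called in a comparison, and the 5 closest genes of each member. Precision is limited by the number of arrays. Alternatives were other scalings, filters and probe set rules, the replicate number as a block, and leaving out each array.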

Additional observations from a re-analysis of the deposited data

How the results depend on the processing

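Every difference of SMAD7 and THBS1 from WT kept its sign under quantile normalization and centring of arrays. Leaving out 1 array could not change a sign, since all 8 mutant arrays lay above both WT arrays for both genes. Averaging of probe sets could change no value, since each gene has 1 probe set. Leaving out 1 array at a time gave 2.26 to 2.54 for SMAD7 in ORC2BP8, 0.32 to 1.16 in ORC1BP32, 0.48 to 1.04 in ORC2B2 and 0.44 to 0.72 in ORC1B14. For THBS1 it gave 2.20 to 3.06 in ORC1B14, 1.45 to 2.49 in ORC2B2, 0.84 to 1.49 in ORC2BP8 and 0.77 to 1.42 in ORC1BP32. The pairs of lines stayed without a call under each alternative. Without 1 array, SMAD7 ran from -0.58 to 0.26 for ORC1B14 minus ORC1BP32, from -0.46 to 0.10 for ORC1B14 minus ORC2B2 and from -0.44 to 0.40 for ORC1BP32 minus ORC2B2, and THBS1 from -0.39 to 0.25 for ORC1BP32 minus ORC2BP8, from -1.39 to -0.35 for ORC1BP32 minus ORC2B2 (both without an ORC2B2 array) and from 0.28 to 1.32 for ORC2B2 minus ORC2BP8 (likewise). After quantile normalization SMAD7 stood at 0.0244 for ORC1BP32 minus ORC2B2. The cause of these sign changes was not tested.

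Pathway genes called, 1 in ORC2BP8 and 0 in the other comparisons, ran without 1 array from 0 to 2 in ORC2BP8 and in the mean of the 4 lines, and from 0 to 1 in ORC1B14 and in ORC2B2. Quantile normalization gave 1 in ORC1B14 and 2 in the mean of the 4 lines, averaged probe sets and the stricter filter gave 1 each in that mean, and testing the unnamed probe sets too (29383 features, chosen after seeing the data) gave 0 in ORC2BP8. The median of the SMAD7 neighbours in ORC1B14 became 0.0352 after quantile normalization and 0.00608 after centring.

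With the replicate number as a block, 7, 3 and 4 pathway genes were called in ORC1B14, ORC2B2 and ORC2BP8 and 6 in the mean of the 4 lines. SMAD6 was among them in each of these 4 comparisons (limma adjusted p = 0.0203, 0.0283, 0.0269 and 0.0199), and CD47 in ORC1B14 (0.0279) and the mean (0.0194). ANKRD1, which passed the filter only through mutant arrays, is also counted among them in ORC1B14, ORC2B2 and the mean. Deviations of same-numbered arrays correlated at 0.0812 to 0.57 over 10 pairs of lines, with 9 above 0.1 and only ORC1BP32 with ORC2B2 below it. Most arrays thus deviate with their number, but the labels name no shared source and the set rule needed every pair above 0.1, so the fit without the block was kept. Over all genes the block gave 496, 57, 251, 402, 709 and 58 calls for ORC1B14, ORC1BP32, ORC2B2, ORC2BP8, their mean, and ORC1 against ORC2 lines, where the fit without it gave 63, 2, 36, 101, 110 and 5. Centring gave 32, 0, 58 and 63 in ORC1B14, ORC1BP32, ORC2BP8 and the mean, quantile normalization 0 in ORC1BP32 and 204 in the mean, no filter 27, 0 and 22 in ORC1B14, ORC1BP32 and ORC2B2, the stricter filter 3 between ORC1 and ORC2 lines, and all probe sets 3, 4, 1, 37, 4 and 2 in the order above. Without 1 array these counts ran from 1 to 82, 0 to 5, 3 to 42, 13 to 161, 1 to 267 and 0 to 10.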
